A study of Rattus norvegicus with 6 samples.

Results

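The miR-25, miR-32, miR-92 and miR-363 family is a group of microRNAs (miRNAs) that share a seed, the short stretch near the 5′ end that pairs with target mRNAs. Members were the rows of the deposited count table named rno-miR-25, rno-miR-32, rno-miR-92a, rno-miR-92b, rno-miR-363 or rno-miR-367, with every arm and copy. The rule took 9 of 1289 rows, and no row matched miR-367. Small RNA had been sequenced from PC12, a line derived from a rat adrenal pheochromocytoma that is widely used as a model of neuron-like cells. There were 3 libraries in a group labelled EC and 3 in a group labelled EN. The labels spell out neither abbreviation and give no dose, time or agent for either group. The series title speaks of Netrin-1, an axon guidance protein, and of endothelial cell exosomes. Both groups are the same cell line with no allele or other treatment named, and no label ties a replicate to a culture of its own. The p-values below thus cover the spread of these libraries, which may be technical.

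A miRNA is cut from a hairpin precursor, and one arm, the guide, usually enters the silencing complex while the other, the passenger, is mostly degraded. The guide pairs by its seed with target mRNAs and lowers their translation and stability. Members of one seed family can therefore share targets even when they are made from different genes. This family is known for repressing the pro-apoptotic protein Bim, and miR-92a is a product of the miR-17-92 oncogenic cluster.

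The guide arms are printed because they carry the shared feature of the family. They are mature sequences from RefSeq (GRCr8), which held all 9 member rows, and the capitals mark the seed, bases 2 to 8.
miR-25-3p: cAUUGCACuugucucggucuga
miR-32-5p: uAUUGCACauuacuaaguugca
miR-92a-3p: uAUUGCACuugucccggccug
miR-92b-3p: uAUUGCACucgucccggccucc
miR-363-3p: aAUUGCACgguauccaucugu
All 5 guide arms carry the same 7-base seed, and no rat miRNA of the RefSeq table outside the rule has it. Outside the seed they differ in how close they are to miR-92a-3p. Counted from the 5′ end and with the base of miR-92a-3p given first, miR-92b-3p differs at 2 of 21 positions (U10C and G21C) and miR-25-3p at 3 (U1C, C14U and C18U). MiR-32-5p differs at 10 of 21 positions and miR-363-3p at 11. MiR-32-5p is the poorest in G and C, which make up 7 of its 22 bases, against 9 of 21 in miR-363-3p, 11 of 22 in miR-25-3p, 12 of 21 in miR-92a-3p and 14 of 22 in miR-92b-3p.

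The members come from different genes. In the RefSeq gene table Mir25 lies inside Mcm7, which encodes a subunit of the replicative helicase, on the same strand and beside Mir93 and Mir106b. Mir32 lies alone inside Tmem245, which encodes a membrane protein, also on the same strand. Mir92a1 follows Mir17, Mir18a, Mir19a, Mir20a and Mir19b1 in the miR-17-92 cluster. Mir92a2 and Mir363 neighbour Mir106a, Mir20b and Mir19b2 in a related cluster on the X chromosome. Mir92b stands by itself between Thbs3 and Muc1. Mir92a1 and Mir92a2 give the same mature miR-92a-3p, so its reads cannot be assigned to either gene. No member gene overlapped another miRNA gene.

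The libraries held between 4521694 and 6554639 miRNA counts. These were 30.9 to 32.6 percent of the library totals implied by the deposited RPM (reads scaled to a library total) in EC and 24.99 to 26.9 percent in EN, without overlap of the groups. Levels here are in CPM, in which a library's miRNA counts are scaled to nearly the same sum, with a further scaling factor per library named below. Among 6 neuroendocrine markers miR-7a-5p was high, with means of 1055 (EC) and 1343 (EN) CPM, whereas miR-375-3p stood at 2.65 and 2.75 CPM. Their sum ranged from 993 to 1158 CPM in EC and 1254 to 1511 in EN, and none of the 5 tested passed. Most of that sum was miR-7a-5p. The means of miR-183-5p (5.58 in EC and 1.73 in EN) and miR-96-5p (3.68 and 2.13) were lower in EN. MiR-183-5p ranged from 0 to 76 counts over the libraries, with a log2 fold change of -1.60 (SE 1.53). MiR-182 (12.6 and 13.9) and miR-7b (0.36 and 0.38) were slightly higher. The 3 neuronal markers summed to 1970 to 2362 CPM in EC and 2150 to 2423 in EN. Of these miR-124-3p had 1 to 5 counts in every library, miR-9a-5p had means of 1442 (EC) and 1095 (EN) CPM and did not pass, and miR-128-3p, with means of 719 and 1161 CPM, rose by a log2 fold change of 0.69 (adjusted p = 0.0177 by edgeR's quasi-likelihood test). That call was lost without EC replicate 3, EN replicate 2 or EN replicate 3 and with library totals implied by RPM (0.36, adjusted p = 0.0848 by edgeR). The endothelial markers (2 of 2 counted) summed to 1064 to 1143 CPM in EC and 1086 to 1228 in EN, most of it miR-126a-3p, with a log2 fold change of 0.07. The other arm, miR-126a-5p, fell from a mean of 60.3 to 33.2 CPM, a log2 fold change of -0.86 (adjusted p = 0.0471 by edgeR), and was called in 1 of the 6 fits without 1 library, the one without EC replicate 2. MiR-126a-5p was called with library totals implied by RPM (-1.20, adjusted p = 0.00874 by edgeR), which called 16.3 percent of all rows. The summed blood markers (7 of 7 with a count in some library) ranged from 94.5 to 127.7 CPM in EC and 157 to 178 in EN. Most of it was miR-150-5p, with means of 99.2 (EC) and 141 (EN) CPM, which did not pass (adjusted p = 0.151 by edgeR). MiR-142-3p (1.60 and 1.11 CPM) and miR-142-5p (0.82 and 0.23) were lower in EN. MiR-486 (0.21 and 0.34) and miR-223-3p (0.26 and 0.49) were higher, and none of these was tested. Blood-specific miR-144-3p had at most 2 counts in any library, and miR-451-5p, with means of 8.10 (EC) and 23.3 (EN) CPM, rose by a log2 fold change of 1.52 (adjusted p = 0.0471 by edgeR's quasi-likelihood test), a call lost on leaving out any 1 of the 6 libraries (adjusted p of 0.0513 to 0.131 by edgeR). MiR-451-5p was called with library totals implied by RPM (1.21, adjusted p = 0.0418 by edgeR). The part of these markers in the results was not tested.

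Levels differed widely between members. They are given as CPM after TMM scaling (trimmed mean of M-values, which removes composition differences between libraries). All member arms are 21 to 24 bases long, so reads were not corrected for length. Whether arms of different sequence were read with equal efficiency was not tested, so the order and shares below are those of reads. The most abundant, rno-miR-92a-3p, took 78.2 ± 1.67 percent of the family's guide counts in EC, against 79.4 ± 1.10 percent in EN (SD, n = 3). It ranked 53 among all rows by mean level. In EC it was followed by rno-miR-25-3p at 295.5 ± 11.3 CPM, rno-miR-32-5p at 272 ± 29.1 CPM and rno-miR-92b-3p at 260.1 ± 29.7 CPM, neighbours whose values lay within their spread of each other. MiR-363-3p came last of the guide arms, at 10.7 ± 0.16 CPM. In EN the order was miR-25-3p at 395 ± 40.6 CPM, miR-92b-3p at 303 ± 52.7, miR-32-5p at 138 ± 20.1 and miR-363-3p at 12.6 ± 1.04. There each neighbour was further away than its SD. The 5 guide arms together took 0.389 ± 0.023 percent of all miRNA counts in EC and 0.408 ± 0.012 percent in EN.

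**Figure D1:**
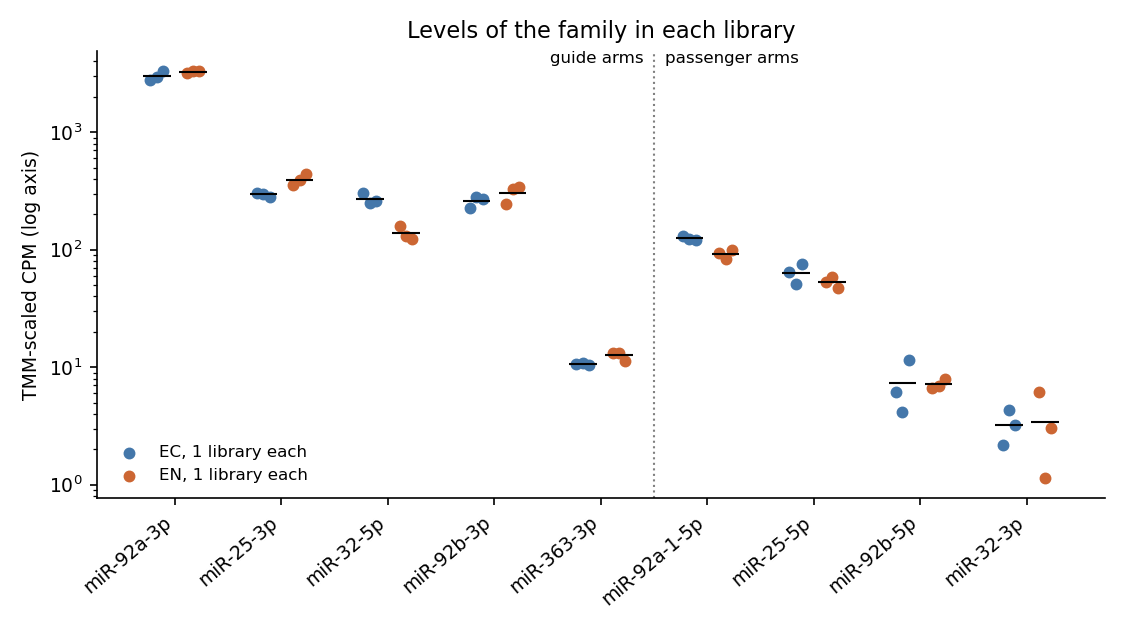
TMM-scaled CPM (log axis) of each member arm in the 3 EC and 3 EN libraries. Each point is a library and each black line a group mean. The EN points of miR-32-5p, at 123 to 161 CPM, lie below its EC points, at 250.2 to 305 CPM, while those of miR-92a-3p overlap.

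The member that changed was rno-miR-32-5p. Its counts were 1976, 1567 and 1710 in the EC libraries and 869, 567 and 563 in the EN libraries. Scaled to CPM these were 305, 250.2 and 261 in EC against 161, 129.6 and 123 in EN. Every EN library was below every EC library, and 29.6 percent of all rows tested had groups apart in either direction. Its level fell by a log2 fold change of -0.98 (SE 0.16), which is 1.97 times lower in EN, with adjusted p = 0.0228 in edgeR's quasi-likelihood fit, adjusted over 628 rows by Benjamini and Hochberg's method. In bulk RNA, fewer cells that make a miRNA and less of it per cell cannot be told apart. The same test called 3.98 percent of all rows tested, with 1.91 percent of all rows called lower in EN, and miR-32-5p had the 12th smallest p. Among the 9 members, all of which passed the filter on low counts, it called 1 lower and 0 higher, where an unadjusted p under 0.05 was met by 2 lower and 1 higher, beside 21.7 percent of all rows. DESeq2, which called 14.0 percent of all rows, called 2 lower and 1 higher, and limma-voom, which called 3.66 percent of all rows, 1 lower and 0 higher. DESeq2 gave no adjusted p for 152 of the 628 rows, miR-32-3p among them. The 14.0 percent counts those rows as not called, so the share of rows with an adjusted p is larger. The edgeR call of miR-32-5p did not hold without EC replicate 1 (adjusted p = 0.0911), EC replicate 3 (0.106), EN replicate 2 (0.109) or EN replicate 3 (0.126). Its log2 fold change stayed between -1.11 and -0.88 in all 6 fits that left out 1 library.

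The value of rno-miR-25-3p had the opposite sign and did not pass the threshold. Its counts were 1978, 1866 and 1855 in EC and 1931, 1704 and 1999 in EN. As CPM these were 305, 298 and 283 in EC and 357, 389 and 438 in EN. The EN libraries all lay above the EC libraries, as was true in either direction of 29.6 percent of all rows tested. Its log2 fold change was 0.42 (SE 0.13, adjusted p = 0.101). DESeq2, which called 14.0 percent of the rows, put it at 0.41 with adjusted p = 0.0396. In the deposited RPM, whose divisor is the larger library total, its groups overlapped at 95.2 ± 6.79 in EC and 100.9 ± 9.62 in EN. With library totals implied by RPM edgeR put it at 0.08 (adjusted p = 0.747).

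In the EC libraries rno-miR-92a-3p, the most abundant member, had 2783, 2972 and 3300 CPM, and in the EN libraries 3188, 3313 and 3290. The groups overlapped, with a log2 fold change of 0.11 (SE 0.10, adjusted p = 0.581 by edgeR's quasi-likelihood test). Its sign depended on the divisor. In RPM every EN library, at 862, 801 and 841, was below every EC library, at 914, 974 and 1019, as was true in either direction of 39.6 percent of all rows tested. With library totals implied by RPM the log2 fold change was -0.22 (adjusted p = 0.198). That divisor shifted the median over all rows tested, which was 0.02, to -0.30, so miR-92a-3p lay 0.09 above the median in both scalings.

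MiR-92b-3p and miR-363-3p also stayed below the threshold. MiR-92b-3p had 226, 282 and 272 CPM in EC against 243, 326 and 341 in EN, with overlapping groups and a log2 fold change of 0.22 (SE 0.17, adjusted p = 0.522 by edgeR). MiR-363-3p rested on few reads, with 69, 68 and 69 counts in EC and 71, 58 and 52 in EN. Its CPM of 10.5 to 10.9 in EC lay below the 11.4 to 13.3 of EN, where 29.6 percent of all rows tested had groups apart in either direction. Its log2 fold change was 0.24 (SE 0.18, adjusted p = 0.510 by edgeR). With library totals implied by RPM both signs turned, to -0.11 and -0.09. Among the guide arms 4 of 5 thus had positive values by edgeR with TMM scaling, against 1 of 5 with those totals.

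The passenger arms do not carry the shared seed. Their sequences, with bases 2 to 8 in capitals, show this for the pair with enough reads to compare.
miR-25-5p: aGGCGGAGacacgggcaauugc
miR-92a-1-5p: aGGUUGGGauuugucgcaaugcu
MiR-92a-1-5p, the passenger arm of the miR-17-92 copy of miR-92a, had 776 to 843 counts in EC and 364 to 506 in EN. Its CPM were 130.2, 123.9 and 121 in EC, against 93.6, 83.2 and 98.8 in EN. Every EN library was lower, where 29.6 percent of all rows tested had groups apart in either direction. The log2 fold change of -0.44 (SE 0.14) had adjusted p = 0.107 by edgeR's quasi-likelihood test. DESeq2 gave -0.45 (adjusted p = 0.0396). With library totals implied by RPM edgeR gave -0.77 (adjusted p = 0.0224), in a setting that called 16.3 percent of all rows. MiR-25-5p had 65.0, 51.2 and 75.6 CPM in EC against 52.7, 58.3 and 47.1 in EN, with overlapping groups and a log2 fold change of -0.28 (SE 0.19, adjusted p = 0.448). In RPM its EN libraries all lay below its EC libraries, where 39.6 percent of all rows tested had groups apart in either direction. With library totals implied by RPM edgeR gave -0.61 (adjusted p = 0.0548). MiR-92b-5p had 26 to 76 counts in EC and 30 to 36 in EN, and miR-32-3p had 14 to 27 in EC and 5 to 33 in EN. Their log2 fold changes of -0.04 (SE 0.38) and 0.12 (SE 0.57) did not pass.

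Over all 9 members the median log2 fold change was 0.11, beside 0.02 over all 628 rows tested, with 5 positive and 4 negative members. With library totals implied by RPM the members' median was -0.22 beside -0.30 for all rows, with 1 positive and 8 negative.

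**Figure D2:**
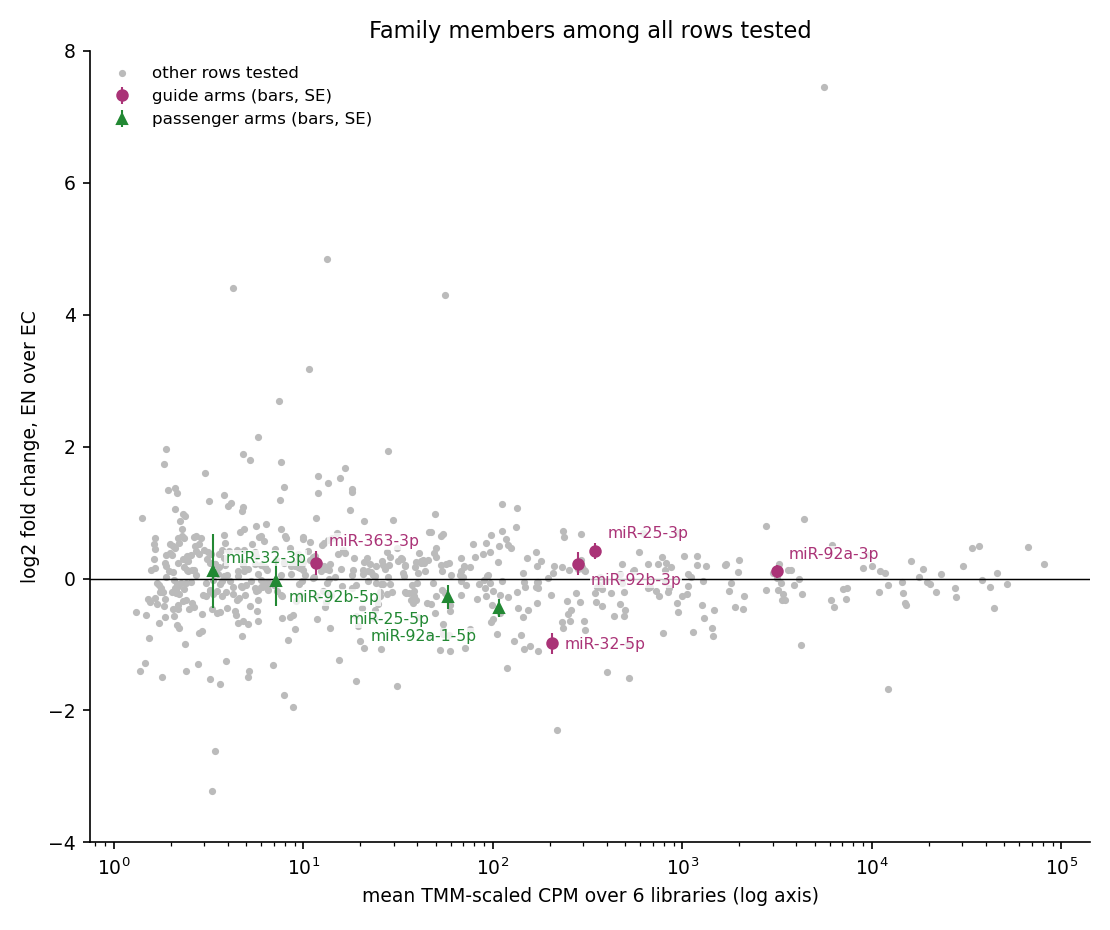
Log2 fold change of EN over EC against mean TMM-scaled CPM (log axis) for all 628 rows tested, with guide arms as circles, passenger arms as triangles and bars for the SE of members. MiR-32-5p, at -0.98, stands apart from the other members, which lie between -0.44 and 0.42.

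Ratios between 2 miRNAs within a library need no scaling between libraries, and they give the balance of reads of 2 members in each library. MiR-25-3p and miR-32-5p were about equal in EC, with 1.00, 1.19 and 1.08 counts of miR-25-3p for each count of miR-32-5p. In EN the same ratio was 2.22, 3.01 and 3.55. All EN libraries exceeded all EC libraries, and the log2 ratio was 0.12 ± 0.13 in EC and 1.52 ± 0.34 in EN (SD, n = 3), a difference of 1.40 (two-sided exact permutation p = 0.1). That is the smallest p that 3 against 3 libraries allow, so no such ratio could pass the threshold. The share of all pairs of rows whose ratios lie apart was not counted. In CPM, miR-25-3p and miR-32-5p each already had groups apart. The ratio of miR-92a-3p to miR-32-5p was 9.12, 11.9 and 12.6 in EC and 19.8, 25.6 and 26.7 in EN, a log2 difference of 1.10 (exact permutation p = 0.1). The ratio of miR-25-3p to miR-92a-3p differed by 0.30 (exact permutation p = 0.1), from -3.35 ± 0.18 to -3.05 ± 0.13 on the log2 scale. Adjusted over the 10 pairs compared, the exact permutation p of each of these was 0.143. As a share of the family's guide counts, miR-32-5p made up 7.10 ± 1.14 percent in EC and 3.37 ± 0.60 percent in EN.

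Arms cut from one primary transcript can be compared in the same way. The miR-106b-25 cluster encodes miR-106b and miR-93, whose guide arms carry a different seed from that of miR-25, the one shared with miR-17.
miR-106b-5p: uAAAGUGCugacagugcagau
miR-93-5p: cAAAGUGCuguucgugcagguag
MiR-106b-5p had 148, 131 and 129 CPM in EC against 73.6, 80.2 and 72.9 in EN, and fell by a log2 fold change of -0.85 (SE 0.14, adjusted p = 0.0228 by edgeR). That call was lost without EC replicate 1, EC replicate 3, EN replicate 2 or EN replicate 3, with adjusted p between 0.0301 and 0.130 over the 6 fits without 1 library and log2 fold changes of -0.87 to -0.78. MiR-106b-5p was called with library totals implied by RPM (-1.18, adjusted p = 0.00726 by edgeR), which called 16.3 percent of all rows. MiR-93-5p, far more abundant at 2929 ± 179 (EC) and 3115 ± 329 (EN) CPM (SD, n = 3), had a log2 fold change of 0.09 (SE 0.11). The ratio of miR-25-3p to miR-106b-5p was 2.07, 2.27 and 2.20 in EC and 4.85, 4.85 and 6.00 in EN. These did not overlap, with a log2 difference of 1.26 (exact permutation p = 0.1, adjusted 0.143). That of miR-25-3p to miR-93-5p differed by 0.33 (exact permutation p = 0.1, adjusted 0.143). Of the 4 partner arms in this cluster 0 were higher and 1 lower by edgeR, DESeq2 and limma-voom alike, also at an unadjusted p under 0.05 by edgeR. Over all rows these called 3.98, 14.0 and 3.66 percent, and the unadjusted threshold 21.7 percent.

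The miR-17-92 cluster adds 10 partner rows, of which 8 were tested and none passed edgeR's test over all rows. By edgeR 2 were lower at an unadjusted p under 0.05 (21.7 percent of all rows), and DESeq2 called 2 lower (14.0 percent) and limma-voom 0 (3.66 percent). The nearest to the threshold was miR-17-5p, with 185, 174 and 158 CPM in EC against 117, 107 and 123.5 in EN, and with a log2 fold change of -0.58 (SE 0.14, adjusted p = 0.0618). RefSeq lists miR-17-5p also for Mir106a and miR-19b-3p for both of its copies, so these rows, like miR-92a-3p, can hold reads of the related cluster. The ratio of miR-92a-3p to miR-17-5p was 15.03, 17.03 and 20.8 in EC and 27.2, 31.1 and 26.6 in EN, a log2 difference of 0.69 (exact permutation p = 0.1, adjusted 0.143). Against miR-19a-3p, which had only 14 to 18 counts in any library, the log2 difference was -0.31 (exact permutation p = 0.1, adjusted 0.143). Against miR-18a-5p, miR-19b-3p and miR-20a-5p it was 0.25, -0.14 and 0.59, with overlapping groups and exact permutation p of 0.3, 0.5 and 0.2 (adjusted 0.333, 0.5 and 0.25). The X-linked cluster adds 3 rows, of which only miR-20b-5p was tested, at 10.1 ± 1.43 (EC) and 9.76 ± 1.33 (EN) CPM. No row matched the miR-302 partners of miR-367. Over the 13 partner arms tested in all clusters the median log2 fold change was -0.12, with 5 positive and 8 negative.

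**Figure D3:**
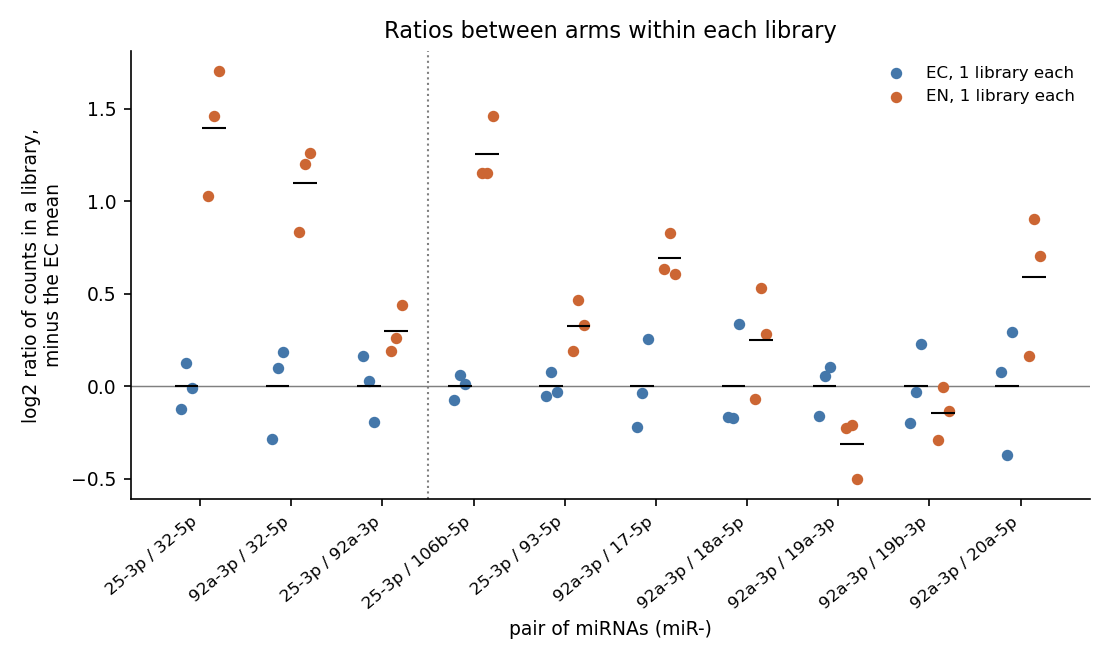
Log2 ratio of the counts of 2 miRNAs in each library, minus the EC mean, for the 10 pairs compared, with points for libraries and lines for group means. The dotted line parts pairs within the family from pairs with cluster partners, and the widest gaps are those of miR-25-3p with miR-32-5p (1.40) and with miR-106b-5p (1.26).

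**Figure D4:**
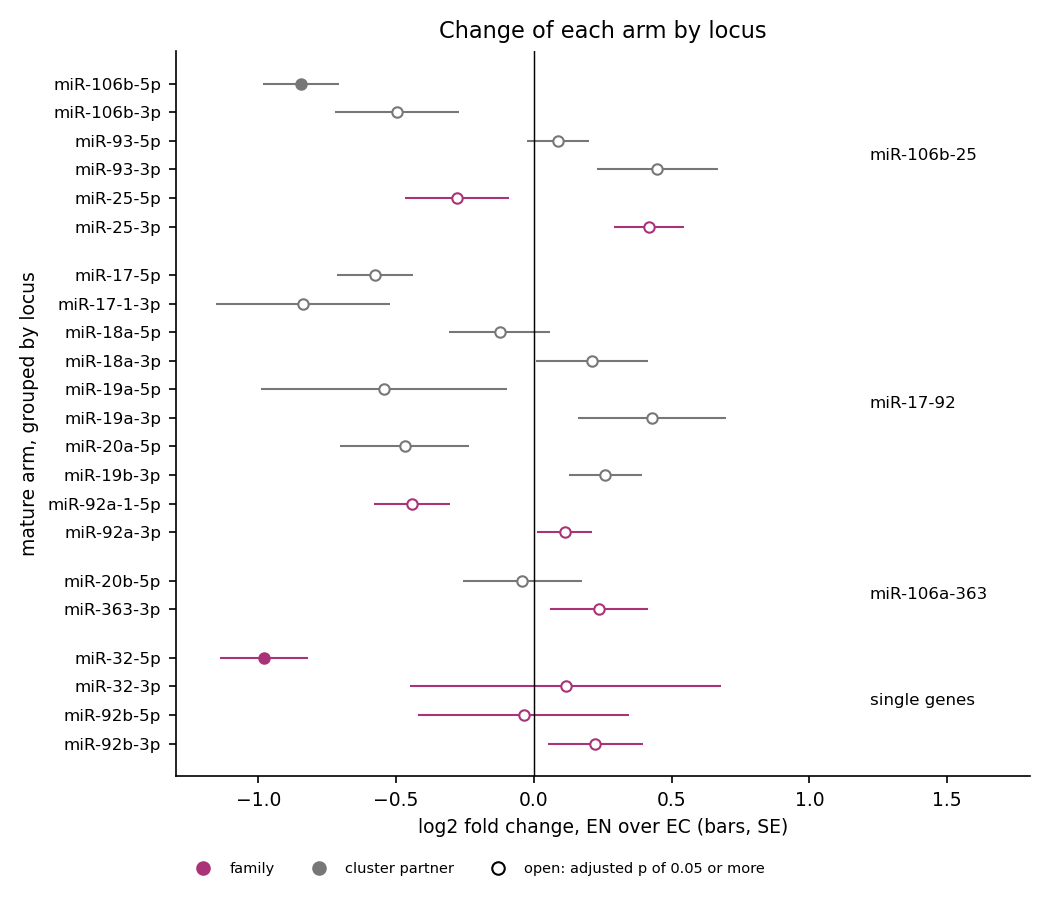
Log2 fold change of EN over EC with SE for member and partner arms, grouped by locus, where filled points passed an adjusted p of 0.05. MiR-92a-3p is drawn with miR-17-92 although a copy in the X-linked cluster gives the same sequence. MiR-32-5p (-0.98) and miR-106b-5p (-0.85) are the filled points.

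The arms of a hairpin were set against each other as the log2 ratio of 5p to 3p counts. The Mir25 hairpin is shown with both arms in capitals, the 5p arm first.
Mir25: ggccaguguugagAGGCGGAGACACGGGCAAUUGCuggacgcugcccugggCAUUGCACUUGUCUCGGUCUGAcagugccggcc
Its log2 ratio was -2.23, -2.54 and -1.90 in EC and -2.76, -2.74 and -3.21 in EN. The 5p arm was thus rarer beside the 3p arm in every EN library, by -0.68 (SE 0.24), but limma's test gave adjusted p = 0.216 over 115 hairpins, of which it called 4.35 percent. The ratio of miR-92a-1-5p to the shared miR-92a-3p went from -4.59 ± 0.18 to -5.15 ± 0.14 (SD, n = 3). This was a difference of -0.56 (SE 0.18, adjusted p = 0.170 by limma), also without overlap. The partner hairpins miR-106b (-0.37) and miR-93 (-0.36) were lower in EN without overlap too, while the groups of miR-17-1 (0.17) and miR-18a (-0.37) overlapped. The share of all 115 hairpins with groups apart was not counted, and their median difference was -0.09. The ratio of miR-92b differed by -0.12 (SE 0.39, adjusted p = 0.899 by limma). MiR-32 was not tested this way, because miR-32-3p fell short of a mean of 20 counts. MiR-363 was not tested either, because the count table held no row for miR-363-5p.

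The known rows whose levels followed each of 3 members most closely were found by Pearson's r of log2 CPM over the 6 libraries among 165 rows with a mean of at least 100 CPM. These r describe 6 libraries that share the difference between groups, and carry no test. For miR-32-5p they were miR-28-5p (r = 0.977), miR-374-5p (0.971) and miR-106b-5p (0.961), which fell by log2 fold changes of -0.60, -0.75 and -0.85 with adjusted p of 0.0228, 0.0290 and 0.0228 by edgeR. For miR-25-3p they were miR-99b-3p (0.979), miR-425-5p (0.963) and miR-222-3p (0.958), with log2 fold changes of 0.40, 0.32 and 0.48, of which that of miR-222-3p passed (adjusted p = 0.0167 by edgeR). These calls were not kept in every fit without 1 library. MiR-28-5p was called in 2 of the 6 such fits (lost without EC replicate 1, EC replicate 3, EN replicate 2 or EN replicate 3). MiR-374-5p was called in 1 of 6 (kept without EN replicate 1) and miR-222-3p in 4 of 6 (lost without EN replicate 2 or EN replicate 3). Over these fits their log2 fold changes stayed at -0.62 to -0.56, -0.88 to -0.65 and 0.46 to 0.53. Their adjusted p by edgeR reached 0.135, 0.143 and 0.0678. With library totals implied by RPM, which called 16.3 percent of all rows, miR-222-3p had a log2 fold change of 0.15 (adjusted p = 0.240 by edgeR). There miR-28-5p (-0.93, adjusted p = 0.00726 by edgeR) and miR-374-5p (-1.07, adjusted p = 0.00904 by edgeR) were called. For miR-92a-3p the likeness was weaker, with miR-181d-5p (0.921), miR-652-3p (0.879) and miR-99b-5p (0.817), none of which passed.

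Base composition was also set against the fold change across known rows. Over the 344 known rows tested that have a RefSeq sequence, Spearman's rho between GC percent and log2 fold change was 0.19 and Pearson's r was 0.08, where rows share libraries and are not independent. The 75 rows under 40 percent GC, the bin of miR-32-5p and miR-32-3p, had a median log2 fold change of -0.22 with 54 of them negative. The 42 rows at 60 percent or over, the bin of miR-92b-3p, miR-92b-5p and miR-25-5p, had a median of 0.02. Among rows with a mean of at least 100 CPM, miR-32-5p among them, rho was 0.18 and r 0.02. There the median was -0.23 under 40 percent GC (34 rows, 26 negative) and 0.22 at 60 percent or over (13 rows, 9 positive). It was -0.05 both at 40 to under 50 and at 50 to under 60 percent. With library totals implied by RPM the lowest and highest bins had medians of -0.55 and -0.12 among these rows. Over all rows with a sequence those were -0.55 and -0.30. The part of base composition in the fall of miR-32-5p was not tested.

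**Figure D5:**
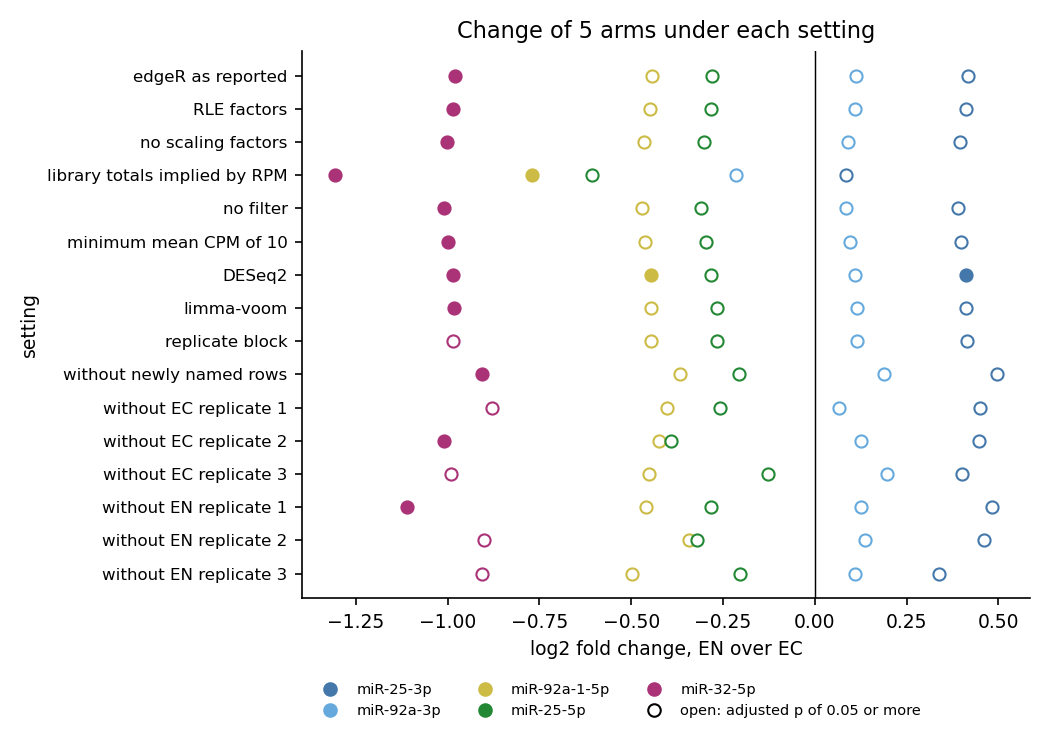
Log2 fold change of EN over EC for 5 arms under edgeR as reported and the 15 alternative settings, where filled points passed an adjusted p of 0.05. MiR-32-5p lies below the other 4 arms in every setting, between -1.31 and -0.88, and miR-92a-3p changes sign with library totals implied by RPM.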

How the data were processed

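Small RNA of PC12 cells was counted in 6 libraries, 3 labelled EC and 3 labelled EN. The authors deposited whole-number read counts per mature miRNA and, beside them, RPM values, which match counts divided by a single total per library in 100 percent of rows (tolerance 0.001). HISAT2 2.0.5 and the build Rnor 6.0 are named, without a role, in the submitters' processing notes. The counting and annotation of reads, the strand and the handling of reads matching several miRNAs are details not given in the sources used here, and near-identical arms such as miR-92a-3p and miR-92b-3p could exchange reads.

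Counts were fitted with edgeR 4.0.16 (R 4.3.3): filterByExpr, TMM factors, the robust quasi-likelihood test with group as the only term, and Benjamini-Hochberg adjustment over 628 rows at a threshold of 0.05. The SE is the size of the log2 fold change over the root of F. Arm ratios used limma 3.58.1 with a pseudocount of 1 and a mean of at least 20 counts in both arms. Ratios within a library used the same pseudocount and two-sided exact permutation tests (scipy 1.17.1). Alternatives were DESeq2 1.42.0, limma-voom, RLE or no factors, library totals implied by RPM, no filter, a mean CPM of 10 or more, no newly named rows, a replicate block, and leaving out each library in turn. The tests were first run on simulated data. Members and lists were chosen with earlier results of these data known. The miRNAs named are all members, their cluster partners, the 3 rows most alike each of 3 members, and markers of cell types, of which those named singly were picked after their values were seen. GC bins were chosen after seeing the data. Sequences and neighbours are from RefSeq (GRCr8), matched by name for 530 of 584 known rows. That build differs from the authors', so no coordinates are given.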

Additional observations from a re-analysis of the deposited data

How the results depend on the processing

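The rows called numbered 25 by edgeR as reported, 101 with library totals implied by RPM, 44 without a filter, 88 with DESeq2, and 2 to 39 without 1 library (10, 39 and 8 on leaving out EC replicates 1, 2 and 3, and 34, 3 and 2 on leaving out EN replicates 1, 2 and 3). A replicate block on the library number left 2 calls, and miR-32-5p was not among them (log2 fold change -0.98, adjusted p = 0.107). Libraries of the same number deviated from their group means with correlations of 0.076, -0.052 and 0.0070, and not every library correlated best with its own number. With so few libraries these values cannot decide whether libraries of the same number share a culture or a batch. MiR-32-5p ranged from -1.11 to -0.88 without 1 library and kept its call in 2 of 6 such fits and in all other settings but the block. MiR-25-3p, at 0.41, newly passed with DESeq2 and kept its sign in all 15 alternatives, but was 0.084 (adjusted p = 0.747 by edgeR) with totals implied by RPM, which moved miR-25-5p from -0.28 to -0.61. MiR-92a-1-5p newly passed with DESeq2 (-0.45) and with totals implied by RPM (-0.77). Those totals reversed miR-92a-3p (-0.22), miR-92b-3p (-0.11), miR-363-3p (-0.092) and miR-32-3p (-0.18), in step with the median of all rows, which they moved to -0.30. MiR-32-3p also reversed with limma-voom (-0.062) and the replicate block (-0.033) and ranged from -0.60 to 0.55 without 1 library. MiR-92b-5p reversed with limma-voom (0.085), the replicate block (0.075) and without newly named rows (0.036), and ranged from -0.29 to 0.48 without 1 library. The 5p to 3p ratio of miR-92b ranged from -0.51 to 0.24. The cause of these changes, apart from the changed divisor, was not tested. The 10 ratios within a library kept their sign in every alternative run. A minimum mean of 10 CPM left miR-32-3p and miR-92b-5p untested. The EC counts of miR-92b-5p spread by an SD of 25.8 around a mean of 47.3.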
